A study of Mus musculus with 8 samples.

Results

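The V segments of the T cell receptor were examined in RNA-seq of CD4+ T cells sorted from mice with and without a CD70 transgene. They were taken by name, as every row of the table whose gene name starts with Trav or Trbv and a number, which gave 163 of 52636 rows. Of these, 128 are alpha chain segments, spread over chr14:52427928-53977678 of GRCm38, and 35 are beta chain segments, within chr6:40891229-41558452. Tregs (CD4+ Foxp3+) and Tconvs (CD4+ Foxp3-) came from CD11c-Cd70tg;CD27+/- Foxp3 reporter mice, hereafter CD70Tg, and from CD27+/- mice, used as controls. All groups are thus heterozygous for the loss of CD27, the receptor of CD70. The transgene is driven by the CD11c promoter, which is active mainly in dendritic cells. The labels call the control groups WT, and the column names call them KO. Per the methods of the study, mice were 6 to 8 weeks old. CD4+ cells of the spleen were enriched by depletion of other cells and sorted by GFP, which reports Foxp3. Per the same methods, depletion for Tconvs, but not for Tregs, also included an antibody to CD25. The subsets thus differ in how they were purified as well as in Foxp3. Each of the 4 groups had 2 libraries, made from 200000 sorted cells apiece. Nothing in the sources says whether the 2 libraries of a group came from separate mice, so the p-values measure only the spread between these libraries, which may be technical.

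A receptor chain is made when a V segment is joined to a J segment, with a D segment between them in the beta chain, and the joined exon is spliced to a constant region. The V segment encodes the loops of the receptor that lie mostly over the presenting molecule, and superantigens bind the products of particular beta V segments. Thymic selection, clonal expansion and the place of a segment in its locus are all known to shape how often it is used in mature T cells.

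Sequences of V exons are shown here first, because how far 2 segments differ sets how well their reads can be told apart. The first pair is Trbv12-1, the segment with the largest difference between Tregs and Tconvs, and its closest relative Trbv12-2, from chr6:41113775-41114067 and chr6:41119072-41119364. Both lie on the plus strand and are 293 bases long, and capitals mark the 32 bases at which they differ. All sequences are from the GENCODE M21 transcripts on GRCm38 and run 5′ to 3′.

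Trbv12-1: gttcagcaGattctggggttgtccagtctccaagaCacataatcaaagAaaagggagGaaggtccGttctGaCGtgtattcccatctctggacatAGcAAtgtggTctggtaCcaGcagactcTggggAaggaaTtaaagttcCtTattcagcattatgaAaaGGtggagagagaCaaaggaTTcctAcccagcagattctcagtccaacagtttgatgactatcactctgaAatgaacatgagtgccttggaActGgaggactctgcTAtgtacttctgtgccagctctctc
Trbv12-2: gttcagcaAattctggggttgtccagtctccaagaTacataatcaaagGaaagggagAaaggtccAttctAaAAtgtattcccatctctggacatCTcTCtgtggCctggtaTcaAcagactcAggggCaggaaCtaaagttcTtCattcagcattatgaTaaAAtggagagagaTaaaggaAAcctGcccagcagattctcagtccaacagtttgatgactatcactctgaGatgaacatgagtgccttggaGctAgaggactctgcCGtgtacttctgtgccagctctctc

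Trbv29 is shown as the segment with the lowest fitted log2 difference in share between CD70Tg and control Tconvs. Its V exon lies at chr6:41271587-41271881 on the plus strand, and its closest relative among the segments, Trbv13-2, is 69.0% identical to it, so no base is in capitals.

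Trbv29: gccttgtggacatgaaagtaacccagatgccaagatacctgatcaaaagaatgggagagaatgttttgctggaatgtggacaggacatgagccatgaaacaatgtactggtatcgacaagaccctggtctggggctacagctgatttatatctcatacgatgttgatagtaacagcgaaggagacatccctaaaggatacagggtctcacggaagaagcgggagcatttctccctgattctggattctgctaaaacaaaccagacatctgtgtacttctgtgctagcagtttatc

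The 3 segments of the Trbv13 family are shown since Trbv13-2 held the largest mean share of the beta chain. Their V exons lie on the plus strand at chr6:41116175-41116468, chr6:41121539-41121832 and chr6:41130292-41130585, and capitals mark the 49 positions at which not all 3 sequences are the same.

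Trbv13-1: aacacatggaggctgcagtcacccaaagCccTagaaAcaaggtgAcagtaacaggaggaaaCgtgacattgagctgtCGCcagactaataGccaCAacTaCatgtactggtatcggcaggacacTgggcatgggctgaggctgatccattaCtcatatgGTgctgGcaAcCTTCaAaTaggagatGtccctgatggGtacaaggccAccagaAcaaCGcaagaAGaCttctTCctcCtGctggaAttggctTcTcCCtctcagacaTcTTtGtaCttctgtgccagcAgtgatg
Trbv13-2: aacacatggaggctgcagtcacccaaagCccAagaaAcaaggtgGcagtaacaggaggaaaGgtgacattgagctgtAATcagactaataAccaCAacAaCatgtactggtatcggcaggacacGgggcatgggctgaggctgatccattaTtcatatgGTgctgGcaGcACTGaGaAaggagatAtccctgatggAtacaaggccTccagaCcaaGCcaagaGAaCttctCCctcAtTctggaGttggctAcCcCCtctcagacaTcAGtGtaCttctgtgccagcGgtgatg
Trbv13-3: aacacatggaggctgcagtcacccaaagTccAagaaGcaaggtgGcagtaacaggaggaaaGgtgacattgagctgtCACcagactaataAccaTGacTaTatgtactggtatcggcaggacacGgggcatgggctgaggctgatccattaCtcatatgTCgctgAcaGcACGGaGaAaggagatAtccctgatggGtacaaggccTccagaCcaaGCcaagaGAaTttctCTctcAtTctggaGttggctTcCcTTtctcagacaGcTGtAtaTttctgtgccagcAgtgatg

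In the alpha locus, many segments have near copies, since a stretch of the locus is present in repeated form and its segments carry the letter d or n. Trav7-4 and Trav7d-4, at chr14:53461447-53461738 and chr14:52770101-52770392 on the plus strand, are shown as an example in which a single base of 292, in capitals, separates the 2 segments.

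Trav7-4: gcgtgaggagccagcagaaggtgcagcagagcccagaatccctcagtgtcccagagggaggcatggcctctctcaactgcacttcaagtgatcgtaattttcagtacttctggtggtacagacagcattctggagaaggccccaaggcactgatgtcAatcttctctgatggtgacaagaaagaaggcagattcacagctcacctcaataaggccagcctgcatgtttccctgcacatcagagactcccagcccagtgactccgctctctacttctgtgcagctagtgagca
Trav7d-4: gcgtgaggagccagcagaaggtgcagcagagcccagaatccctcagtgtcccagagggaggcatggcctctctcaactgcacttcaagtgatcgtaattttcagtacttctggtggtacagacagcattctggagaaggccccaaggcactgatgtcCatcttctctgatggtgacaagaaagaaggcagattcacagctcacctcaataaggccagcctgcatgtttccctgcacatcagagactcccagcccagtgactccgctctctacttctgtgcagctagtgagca

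Of the 108 alpha segments with a V exon in the annotation, 83 have another segment that is at least 97% identical over the exon, and 40 have an identical copy. No beta segment has such a copy, and the most alike beta segments, Trbv13-2 and Trbv13-3, are 91.8% identical. In 5 pairs of alpha segments, such as Trav3d-3 and Trav3n-3, both segments had the same value in all 8 libraries. Values of single alpha segments are therefore uncertain wherever a near copy exists, and beta segments are the firmer measurements.

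The deposited values are reads per gene scaled to 20 M per library. From the smallest steps between low values, the libraries held 6.9 to 33.17 M reads on genes in Tconvs and 1.9 to 4.52 M in Tregs, with less certain values for Tconv control library 1 and Tconv CD70Tg library 2. The number of reads per library was lower in all Treg than in all Tconv libraries. Foxp3, which encodes the transcription factor used for the sort, was at 1039 to 1497 in Tconvs and 19769 to 21367 in Tregs. In each group the 2 libraries differed by more than counting error over all rows (chi-square per degree of freedom of 1.54 to 30.5), so none was taken as deposited in duplicate. The shares below are the percent of the summed value of all V segments of the same chain in the same library. They rest on 1210 to 39536 beta V reads and 502 to 14631 alpha V reads.

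Among the 163 segments, 14 were listed at 0 in every library, 22 had 3 reads in no library, and 75 had 3 or more reads in all 8. The minimum for testing, a value of 60 or more in 2 or more libraries, was met by 72 segments, 51 alpha and 21 beta, and these were tested, while 91 were not. All 33 segments annotated as pseudogenes were among the latter. The segments that were not tested held 11.8 to 15.2% of the alpha chain and 0.0564 to 0.43% of the beta chain.

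Beta chain usage was led by the same few segments in every group. The first 5 segments of a library held 43 to 49.7% of the beta chain, and the mean shares of the 21 tested beta segments ran from 0.527 to 13.1%. Trbv13-2, known in older naming as V beta 8.2, had shares of 13.6 and 13.97% in control Tconvs, 13.2 and 13.8% in CD70Tg Tconvs, 12.3 and 10.9% in control Tregs, and 13.1 and 13.7% in CD70Tg Tregs. Only the control Treg libraries lay below all others. Trbv3 came second by mean share over the 8 libraries, followed by Trbv16, Trbv12-2, Trbv15 and Trbv19. In control Tregs, Trbv3 was above Trbv13-2 in both libraries, at 12.9 and 12.2%. The group means of Trbv15 lay between 6.81 and 8.002% and those of Trbv19 between 5.89 and 7.17%. Trbv13-1, Trbv13-3 and Trbv4 had group means of 4.98 to 6.59%, 4.501 to 5.24% and 2.82 to 3.605%. Trbv20 and Trbv26 had group means of 2.49 to 3.29% and 2.12 to 2.53%. At the low end stood Trbv17, Trbv23 and Trbv30, with group means of 1.03 to 1.96%, 0.515 to 0.6005% and 0.382 to 0.767%. The highest mean of Trbv17 rested on 1 of the 2 CD70Tg Tconv libraries, with 2.83% against 1.09% in the other. Over the 8 libraries the shares of Trbv16, Trbv12-2 and Trbv15 overlapped, so that their order is not fixed.

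**Figure D1:**
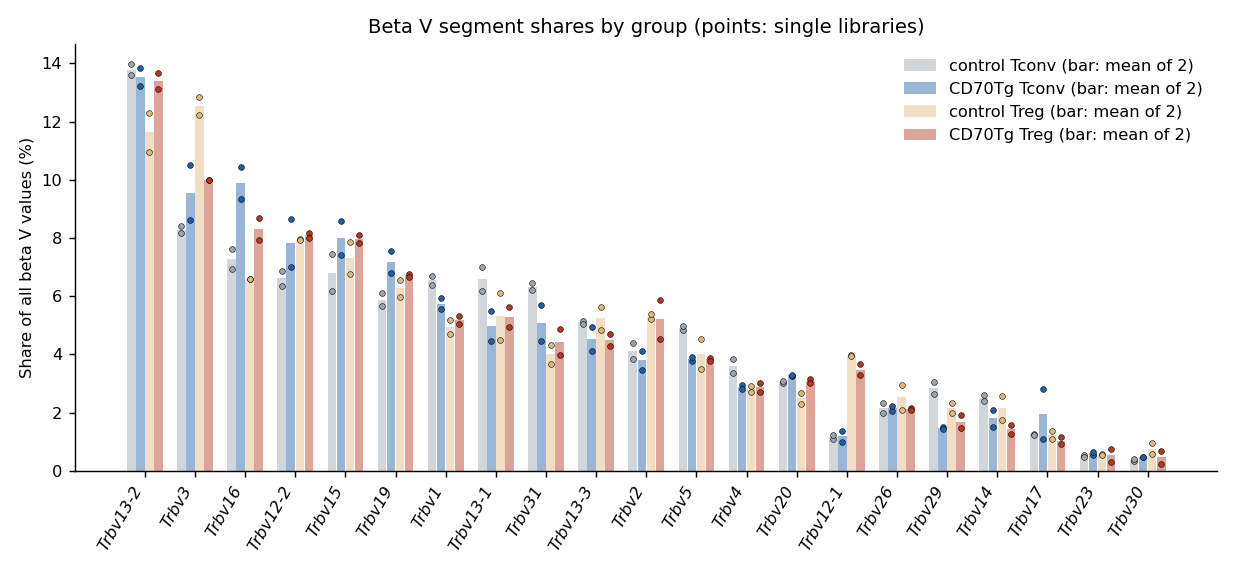
Share of all beta V values (%) for the 21 tested beta segments, ordered by mean share. Bars are the means of 2 libraries in each of the 4 groups and points are single libraries. Trbv13-2 is the highest on average, and the 4 Treg libraries stand apart from the 4 Tconv libraries at Trbv12-1.

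Alpha chain usage was spread more evenly. The first 5 segments held 16.6 to 21.9% of the alpha chain, and mean shares of the tested alpha segments ran from 0.611 to 5.06%. The 10 alpha segments with the largest mean share were Trav3-3, Trav14d-3-dv8, Trav7-4, Trav4-4-dv10, Trav13-1, Trav5-4, Trav9-4, Trav14-1, Trav14n-3 and Trav7-3. Trav3-3 had shares of 4.62 and 4.86% in control Tconvs, 3.61 and 4.70% in CD70Tg Tconvs, 6.34 and 5.57% in control Tregs, and 5.94 and 4.85% in CD70Tg Tregs. Treg libraries were mostly above Tconv libraries, with the lowest Treg library just under the highest Tconv library. Trav14d-3-dv8, which can also be joined into delta chains, had the largest single share, 7.66%, in Tconv control library 1, against 4.20% in the other library of that group. Among the tested segments, 34 of 55 segments without a letter, 10 of 39 with d and 7 of 34 with n passed the minimum.

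The evenness of usage was summarised as the effective number of segments, the number of equally used segments that would give the same Shannon entropy. It was 60.41 to 65.82 for the alpha chain and 16.12 to 17.24 for the beta chain. For the beta chain it was 17.09 ± 0.112 in control libraries and 16.6 ± 0.319 in CD70Tg libraries (SD, n = 4 each), and the 2 sets did not overlap. The two-sided exact permutation test gave p = 0.029, the smallest p that 4 against 4 libraries allow, and the p-value adjusted over 20 tests of chain totals and diversity was 0.097. Each set of 4 joins 2 Tconv and 2 Treg libraries, which may come from the same mice, and the exact permutation test within subsets gave p = 0.056, the smallest it allows. Within Tconvs the beta values were 17.09 and 17.07 in controls against 16.12 and 16.73 in CD70Tg mice. Within Tregs they were 16.97 and 17.24 against 16.77 and 16.77. The expected number of beta segments in 1210 reads, the read number of the shallowest library, had its higher mean in CD70Tg mice, with 22.6 ± 0.622 in control and 23.42 ± 0.629 in CD70Tg libraries and overlapping sets (SD, n = 4 each; exact permutation p = 0.2, adjusted p = 0.5). For the alpha chain, the effective number was 63.54 ± 2.34 in CD70Tg and 62.62 ± 1.85 in control libraries (exact permutation p = 0.6, adjusted p = 0.73), and it overlapped between the subsets too.

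The overlap of beta usage, the sum of the smaller of 2 shares over all segments, was 92.6 to 96.2% between the 2 libraries of a group. Between genotypes of 1 subset it was 89.8 to 92.8%. Between the subsets it was 86.7 to 88.9% in control mice and 92.3 to 94.2% in CD70Tg mice, a range that includes the 92.6% between the 2 CD70Tg Tconv libraries. For the alpha chain the overlap had medians of 87.0% within groups, 84.8% between genotypes of 1 subset and 83.3% between subsets of 1 genotype, and the 3 ranges overlapped. Counting error differs between these pairs, since the Treg libraries hold fewer reads. For the same spread of shares, the chi-square values that follow grow with the number of reads, so they do not rank the groups by spread. Against counting error alone, the 2 libraries of a group had chi-square values per degree of freedom of 3.16 in control Tconvs, 10.8 in CD70Tg Tconvs, 2.06 in control Tregs and 0.767 in CD70Tg Tregs for the beta chain.

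The amount of receptor RNA differed between the subsets before any scaling to the chain. The summed value of the beta V segments was 23782 ± 1186 in Tconvs and 14436 ± 1427 in Tregs (SD, n = 4), a ratio of 0.607. The alpha V segments summed to 9103 ± 1177 in Tconvs and 5314 ± 111.5 in Tregs, a ratio of 0.584. For both chains all Treg libraries lay below all Tconv libraries, with an exact permutation p = 0.029, again the smallest possible, and an adjusted p of 0.097. Permuted within genotypes, the exact test gave p = 0.056, its own smallest value. The constant regions differed less, with Trbc1 and Trbc2 together at 34056 ± 4130 in Tconvs and 27266 ± 1082 in Tregs. The V value per constant region value was accordingly lower in Tregs, 0.5285 ± 0.0357 against 0.7055 ± 0.0861 for the beta chain and 0.2645 ± 0.0209 against 0.3875 ± 0.0599 for the alpha chain, with the same p-values. Read depth was lower in Tregs as well, and its part in these ratios was not tested. In bulk RNA, fewer cells that use a segment and less receptor RNA per cell cannot be told apart. Pooled over the subsets, CD70Tg and control libraries overlapped in these totals and ratios. Within a subset, both CD70Tg libraries lay below both controls for each total. The beta totals were 22256 and 23744 against 23986 and 25141 in Tconvs, and 12655 and 14117 against 16047 and 14923 in Tregs. The alpha totals were 7763 and 8849 against 10617 and 9184 in Tconvs, and 5287 and 5174 against 5362 and 5435 in Tregs. The V value per constant region value was also below the controls in CD70Tg Tregs (beta 0.479 and 0.526 against 0.556 and 0.553), while it overlapped in Tconvs. With 2 libraries a group, no exact test of these differences could pass the threshold.

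**Figure D2:**
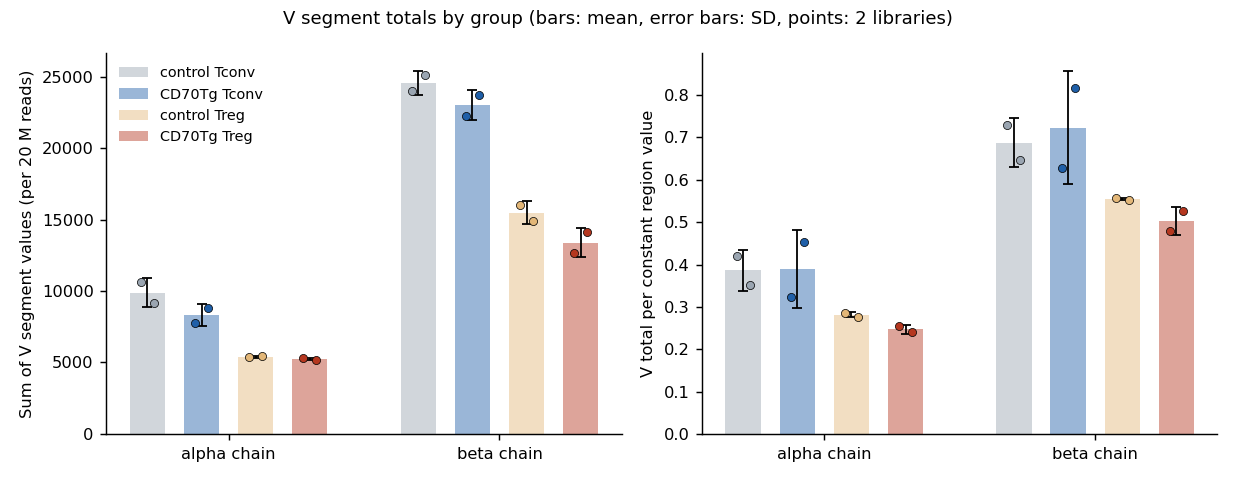
Left, summed V segment values per 20 M reads by chain and group. Right, the same sum divided by the constant region value of the chain. Bars are means, error bars SD and points the 2 libraries of a group. In both chains the Treg libraries lie below all Tconv libraries in both panels.

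At the level of single segments, this difference meant that most segments had lower deposited values in Tregs. In control mice, limma called 41 of the 72 tested segments lower and 1 higher in Tregs than in Tconvs at an adjusted p under 0.05, where 18.4% of all 12816 rows tested were lower and 27.5% higher. In CD70Tg mice 38 were lower and 1 higher, against 20.1% lower and 22.6% higher of all rows. The segment with a higher level was Trbv12-1 in either genotype. Its level was 614 in control Tregs against 284.5 in control Tconvs (2.14-fold on the log2(value + 5) scale, adjusted p = 0.00069 by limma). In CD70Tg mice it was 467.5 in Tregs against 275 in Tconvs (1.71-fold, adjusted p = 0.0095). The genes of the receptor complex fell along with the segments. All 8 of Trac, Trbc1, Trbc2, Cd3d, Cd3e, Cd3g, Cd247 and the coreceptor gene Cd4 were lower in control Tregs, with a median log2 difference of -0.40, and 3 of the 8 were lower in Tregs of CD70Tg mice. The comparisons below are of shares, unless a value is called a level. In shares the chain total of each library is set to the same value, which removes differences in the total amount of receptor RNA. A share remains a share of RNA, so more cells with a segment and more receptor RNA per such cell cannot be told apart. Use of a segment below means its share of this RNA.

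The first comparison asked which segments Tregs and Tconvs of control mice used to a different extent. Trbv12-1, Trav7-1 and Trbv3 took larger shares in Tregs, and Trbv1, Trbv31 and Trav8d-1 smaller ones. These 6 are 8.33% of the 72 tested segments, while 45.5% of all rows tested were called in this comparison. The shares of the groups did not overlap for 38 of the 72 segments, against 76.0% of all rows. The median absolute log2 difference was 0.29 for the segments and 0.43 for all rows.

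Trbv12-1 showed the largest difference. Its share was 1.09 and 1.22% in control Tconvs, and 3.99 and 3.93% in control Tregs. In CD70Tg mice it was 0.997 and 1.38% in Tconvs, and 3.30 and 3.66% in Tregs. All 4 Treg libraries lay above all 4 Tconv libraries, with a wide gap. The share was 3.38-fold higher in control Tregs (log2 difference 1.76 ± 0.20 SE, adjusted p = 3.4e-06 by limma) and 2.92-fold higher in Tregs of CD70Tg mice (1.55 ± 0.20, adjusted p = 1.8e-05). These values rest on 77 to 546 reads in the Tconv libraries and 40 to 134 in the Treg libraries. The 95% Wilson intervals, which cover counting error only, reached up to 1.5% in Tconvs and down to 2.44% in Tregs. The difference held with any 1 library left out and under all other settings tried, with adjusted p-values up to 0.00084 in control and 0.0095 in CD70Tg mice.

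The close relative Trbv12-2, the sequence of which is given above, was not called. It held 6.36 and 6.88% in control Tconvs, 6.99 and 8.64% in CD70Tg Tconvs, 7.96 and 7.93% in control Tregs, and 8.18 and 8.01% in CD70Tg Tregs. Its difference between the subsets was 0.26 in control mice (log2, 95% interval -0.02 to 0.54, adjusted p = 0.12 by limma) and 0.06 in CD70Tg mice (-0.22 to 0.34, adjusted p = 0.75). As a percent of both segments together, Trbv12-1 made up 14.6 and 15.1% in control Tconvs, 12.5 and 13.8% in CD70Tg Tconvs, 33.4 and 33.2% in control Tregs, and 28.8 and 31.4% in CD70Tg Tregs. The split of the pair therefore separated the subsets without overlap in both genotypes.

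**Figure D3:**
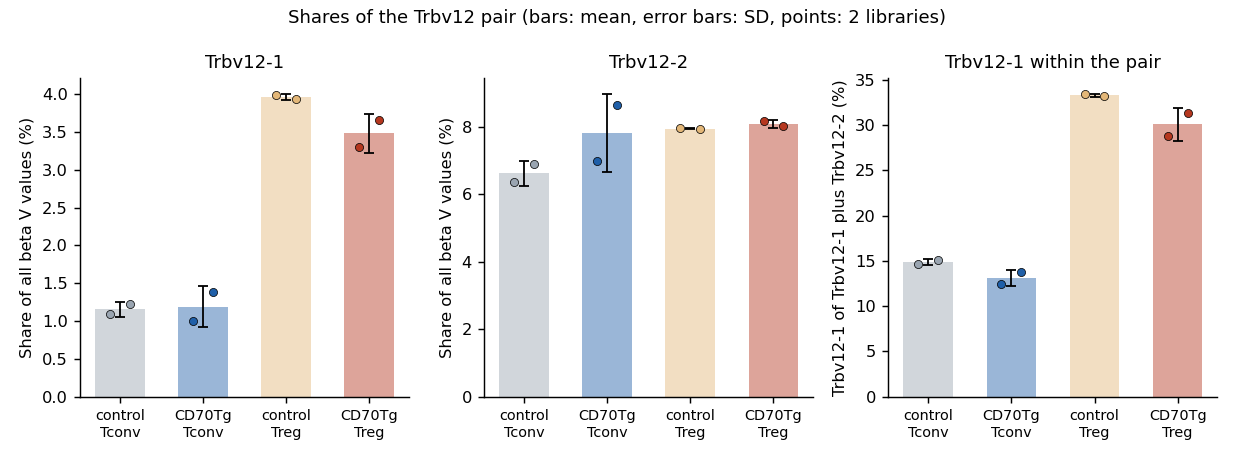
Share of all beta V values (%) for Trbv12-1 and Trbv12-2, and Trbv12-1 as a percent of the pair, in the 4 groups. Bars are means, error bars SD and points the 2 libraries of a group. Trbv12-1 is near 1% in Tconvs and between 3.30 and 3.99% in Tregs, while Trbv12-2 overlaps between Tconvs and Tregs of CD70Tg mice.

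Trbv3 held 8.41 and 8.17% of the beta chain in control Tconvs, 10.5 and 8.62% in CD70Tg Tconvs, 12.9 and 12.2% in control Tregs, and 9.996 and 9.981% in CD70Tg Tregs. The control Tregs were above every other library. The share was 1.51-fold higher in Tregs of control mice (log2 0.60 ± 0.12, adjusted p = 0.001 by limma), and in CD70Tg mice the difference was 0.07 (95% interval -0.19 to 0.33, adjusted p = 0.68). By level there was no such rise, as the deposited values averaged 1944 in control Tregs and 2035 in control Tconvs (log2 difference -0.07, adjusted p = 0.69).

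Trbv1 and Trbv31 were used less in control Tregs. Trbv31, the only tested beta segment that lies beyond the constant regions and on the minus strand, held 6.21 and 6.45% in control Tconvs, 5.70 and 4.47% in CD70Tg Tconvs, 3.69 and 4.34% in control Tregs, and 3.97 and 4.86% in CD70Tg Tregs. The control groups were well apart, whereas the CD70Tg groups overlapped. The control difference was 0.634-fold (log2 -0.66 ± 0.16, adjusted p = 0.0034 by limma) and was called with each library left out, up to an adjusted p of 0.048. Trbv1 held 6.55% ± 0.223 in control Tconvs and 4.93% ± 0.336 in control Tregs (SD, n = 2). That is 0.753-fold (adjusted p = 0.019 by limma). The call was lost without Tconv control library 1 (adjusted p = 0.055), Tconv control library 2 (0.11) or Treg control library 2 (0.16).

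Trav7-1 and Trav8d-1 were the alpha segments called in control mice. Trav7-1, whose closest relative is 94.8% identical, held 1.03 and 1.10% in control Tconvs, 0.966 and 0.972% in CD70Tg Tconvs, 2.18 and 2.74% in control Tregs, and 1.00 and 1.68% in CD70Tg Tregs. Its share was 2.22-fold higher in control Tregs (log2 1.15 ± 0.33, adjusted p = 0.0093 by limma). Without Tconv control library 1 or Treg control library 2 its adjusted p was 0.064 and 0.087, and by deposited level it was 0.45. Trav8d-1, which is 98.9% identical to Trav8-1, fell from 3.07% ± 0.457 in control Tconvs to 1.68% ± 0.0815 in control Tregs (0.559-fold, adjusted p = 0.015 by limma). Without the same libraries its adjusted p was 0.16 and 0.084.

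The second comparison was of the same subsets in CD70Tg mice. In addition to Trbv12-1, Trbv2 was higher, and Trav9-2 and Trav14-3 were lower in Tregs. These 4 segments are 5.56% of those tested, against 42.3% of all rows, and the groups did not overlap for 27 of 72 segments, against 69.0% of all rows. Trav14-3 held 2.01 and 1.83% in control Tconvs, 1.89 and 1.93% in CD70Tg Tconvs, 1.27 and 1.86% in control Tregs, and 0.605 and 0.947% in CD70Tg Tregs. CD70Tg Tregs were below the other 6 libraries. The share was 0.418-fold of that in Tconvs (log2 -1.26 ± 0.32, adjusted p = 0.0055 by limma). With limma-voom on recovered reads the adjusted p was 0.057. Only 3 and 9 reads stood behind the CD70Tg Treg values, and Trav14-3 is 98.1% identical to Trav14n-3.

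Trav9-2 held 1.79 and 3.41% in CD70Tg Tconvs and 0.794 and 1.49% in CD70Tg Tregs, so the 2 libraries of each group were far apart. The difference was 0.456-fold (adjusted p = 0.016 by limma), and it was lost without Tconv CD70Tg library 2 (adjusted p = 0.2) or Treg CD70Tg library 1 (0.16), with limma-voom (0.099) and without a minimum value (0.084). Trbv2 held 4.13 and 3.47% in CD70Tg Tconvs and 5.86 and 4.55% in CD70Tg Tregs. It was 1.36-fold higher in Tregs by share (adjusted p = 0.035 by limma), but by deposited level it averaged 692 in Tregs and 872 in Tconvs (log2 -0.33, adjusted p = 0.088). The call was lost in 4 of the 8 fits with a library left out. These were the fits without Tconv CD70Tg library 2 (adjusted p = 0.19), Treg CD70Tg library 1 (0.32), and Treg control library 1 or 2 (0.051 each). It was also lost with limma-voom (0.079), without a minimum value (0.09) and with the 4 libraries of the comparison alone (0.066).

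These 2 comparisons share no library. Across the 21 beta segments, the log2 differences between the subsets in control and in CD70Tg mice had a Pearson correlation of 0.66 and a Spearman correlation of 0.23, with the same sign in 13. Without Trbv12-1 the Pearson correlation was 0.13. Across the 51 alpha segments the correlations were 0.32 and 0.35, with the same sign in 29. Segments within a chain are not independent, since their shares sum to a fixed total, and near copies can share reads. Trbv12-1 was the only segment called in both genotypes.

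**Figure D4:**
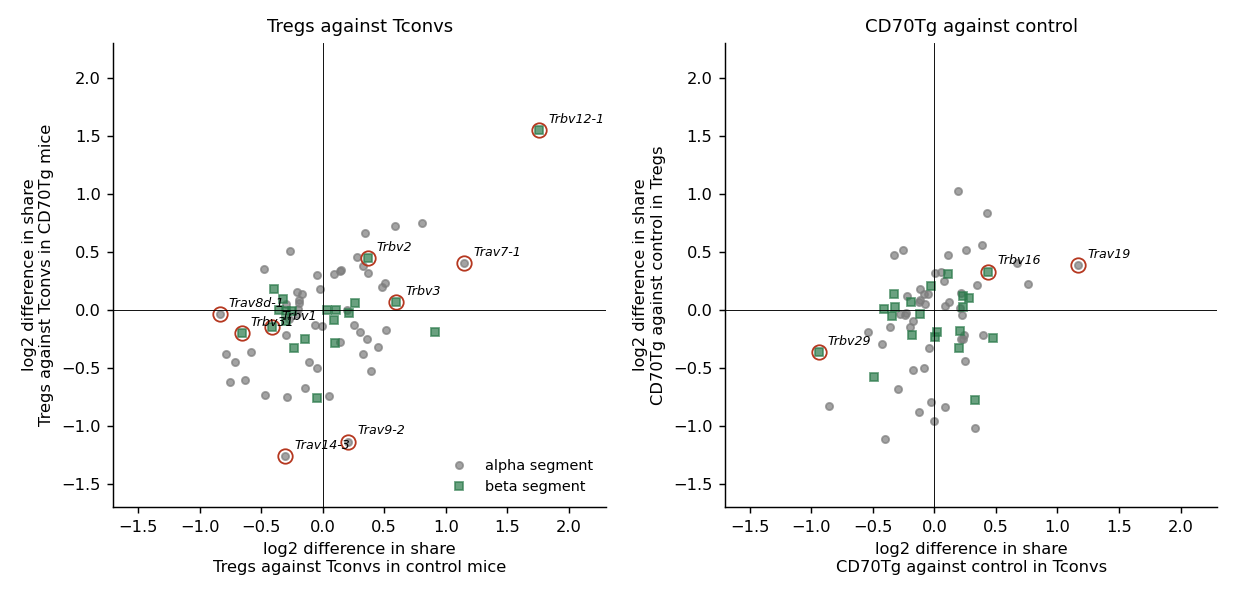
Each point is a tested segment, with alpha segments as circles and beta segments as squares. Left, log2 difference in share between Tregs and Tconvs in control mice (x axis) and in CD70Tg mice (y axis). Right, log2 difference between CD70Tg and control mice in Tconvs (x axis) and in Tregs (y axis). Circled and named segments were called in at least 1 of the 2 comparisons of the panel. Trbv12-1 lies far out at the upper right of the left panel, at 1.76 and 1.55.

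The effect of CD70 on segment usage was compared next. In Tconvs, Trav19 and Trbv16 took larger shares and Trbv29 a smaller share in CD70Tg than in control mice. These 3 are 4.17% of the tested segments, against 8.82% of all rows. The groups did not overlap for 38 of 72 segments, against 45.1% of all rows.

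Trbv29, or V beta 7 in older naming, held 3.05 and 2.66% in control Tconvs and 1.505 and 1.436% in CD70Tg Tconvs. In Tregs it held 2.00 and 2.32% in control and 1.90 and 1.47% in CD70Tg mice. The CD70Tg libraries were below the control libraries in both subsets. In Tconvs the share was 0.521-fold (log2 -0.94 ± 0.20, adjusted p = 0.0057 by limma), from 319 and 714 reads in controls and 116 and 567 in CD70Tg mice. Its level fell too, from 700 to 338 (adjusted p = 0.0018). In Tregs the difference in share was -0.36 (95% interval -0.79 to 0.07, adjusted p = 0.32). The difference between these responses was 0.58 (95% interval -0.02 to 1.19, adjusted p = 0.5), so it was not shown to differ between the subsets. The Tconv call was lost without Tconv control library 1 (adjusted p = 0.077) and without a minimum value (0.052).

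Trbv16 moved the other way. It held 7.61 and 6.95% in control Tconvs and 10.4 and 9.34% in CD70Tg Tconvs. In Tregs it held 6.59 and 6.61% in control and 8.68 and 7.94% in CD70Tg mice. CD70Tg libraries were above control libraries in both subsets. The share was 1.36-fold in Tconvs (log2 0.44 ± 0.13, adjusted p = 0.037 by limma) and 1.26-fold in Tregs (0.33 ± 0.13, adjusted p = 0.13). The Tconv call was lost whenever a library was left out, with adjusted p-values of 0.051 to 0.24, and also without a minimum value (0.11), by deposited level (0.099) and with the 4 Tconv libraries alone (0.097), so Trbv16 stands at the threshold.

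Trav19 held 0.989 and 1.54% in control Tconvs and 2.64 and 3.11% in CD70Tg Tconvs. In Tregs it held 1.01 and 1.62% in control and 1.80 and 1.59% in CD70Tg mice. The rise was 2.25-fold in Tconvs (log2 1.17 ± 0.32, adjusted p = 0.03 by limma) and the Treg value 1.30-fold (log2 0.38, 95% interval -0.30 to 1.06, adjusted p = 0.54). The Tconv call was lost without Tconv control library 1 (adjusted p = 0.31), Tconv CD70Tg library 1 (0.054) or Tconv CD70Tg library 2 (0.21), without a minimum value (0.17) and by deposited level (0.091). Trav19 has no near copy, its closest relative Trav10 being 72.9% identical.

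In Tregs, limma called 0 of the 72 segments between CD70Tg and control mice, where 7.39% of all rows were called. At an unadjusted p under 0.05 there were 13 segments, against 21.6% of all rows. In the limma-voom fit on recovered reads the count of calls stayed at 0, and it was 3 without Treg CD70Tg library 2 and 0 or 1 without any other library. The groups did not overlap for 28 of 72 segments, against 53.7% of all rows. The lowest p was that of Trav16n, with 1.02% in CD70Tg and 2.28% in control Tregs (log2 -1.11 ± 0.35, adjusted p = 0.068 by limma). Trav14-3 held 0.776% in CD70Tg and 1.56% in control Tregs (log2 -0.96 ± 0.32, adjusted p = 0.086). Trbv3 held 9.99% against 12.5% (log2 -0.33 ± 0.12, adjusted p = 0.13). By deposited level, Trbv3 was the 1 segment called lower, where 3.46% of all rows were, at 1337 in CD70Tg and 1944 in control Tregs (0.689-fold, adjusted p = 0.015 by limma). The median standard error of a log2 difference was 0.34 for alpha and 0.16 for beta segments, which limits what could be detected with 2 libraries a group.

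Trbv13-2 and Trbv5 were not called in any comparison. For Trbv13-2 the CD70Tg difference was 0.21 in Tregs (95% interval -0.03 to 0.45, adjusted p = 0.32 by limma) and -0.03 in Tconvs (-0.27 to 0.21, adjusted p = 0.94). Trbv5 held 4.83 and 4.96% in control Tconvs, 3.78 and 3.92% in CD70Tg Tconvs, 3.48 and 4.52% in control Tregs, and 3.89 and 3.78% in CD70Tg Tregs. Only the control Tconvs lay above all other libraries. The CD70Tg difference of Trbv5 in Tconvs was -0.34 (95% interval -0.67 to -0.02, adjusted p = 0.23).

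Among the other segments, Trbv14 and Trav14d-3-dv8 had lower shares in all CD70Tg libraries than in the control libraries of the same subset. Trbv14 averaged 2.51 and 1.80% in control and CD70Tg Tconvs (adjusted p = 0.26 by limma), and 2.17 and 1.42% in control and CD70Tg Tregs (adjusted p = 0.15). Trav14d-3-dv8 averaged 5.93 and 3.11% in Tconvs (adjusted p = 0.086) and 3.64 and 2.08% in Tregs (adjusted p = 0.098). The gamma-delta T cell markers, given at the end, were by median lower in CD70Tg mice of both subsets too. Among them, the delta constant region Trdc was lower in CD70Tg Tregs, while its values overlapped in Tconvs (208 and 247 in control, 297 and 207 in CD70Tg). The part of these markers was not tested. Neither Trbv14 nor Trav14d-3-dv8 passed the threshold by share in either subset by limma. Limma-voom on recovered reads, however, called Trav14d-3-dv8 in Tconvs (log2 -0.98, adjusted p = 0.012). By level, 2 segments were lower in CD70Tg Tconvs, Trbv29 and Trav14d-3-dv8 (599.5 in control and 258 in CD70Tg Tconvs, adjusted p = 0.036), against 1.99% of all rows. In all, 12 segments did not overlap between genotypes within either subset and had the same direction, against 21.7% of all rows, Trbv16 and Trbv29 among them. There were 3 with opposite directions, namely Trav7-5, Trav8d-1 and Trbv3, against 5.49% of all rows. The differences in Tconvs and in Tregs, which rest on separate libraries, had Pearson and Spearman correlations of 0.16 and 0.15 over 21 beta segments and 0.28 and 0.28 over 51 alpha segments.

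The test of the difference between the Treg and Tconv responses to CD70 called 0 of 72 segments with limma, against 1.02% of all rows, and limma-voom called 0 as well, with 1 call without Treg CD70Tg library 2. At an unadjusted p under 0.05 there were 3 segments, against 10.7% of all rows. These were Trbv3 (log2 -0.53, adjusted p = 0.23), Trav9-2 (-1.34, adjusted p = 0.3) and Trav8d-1 (0.80, adjusted p = 0.45).

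**Figure D5:**
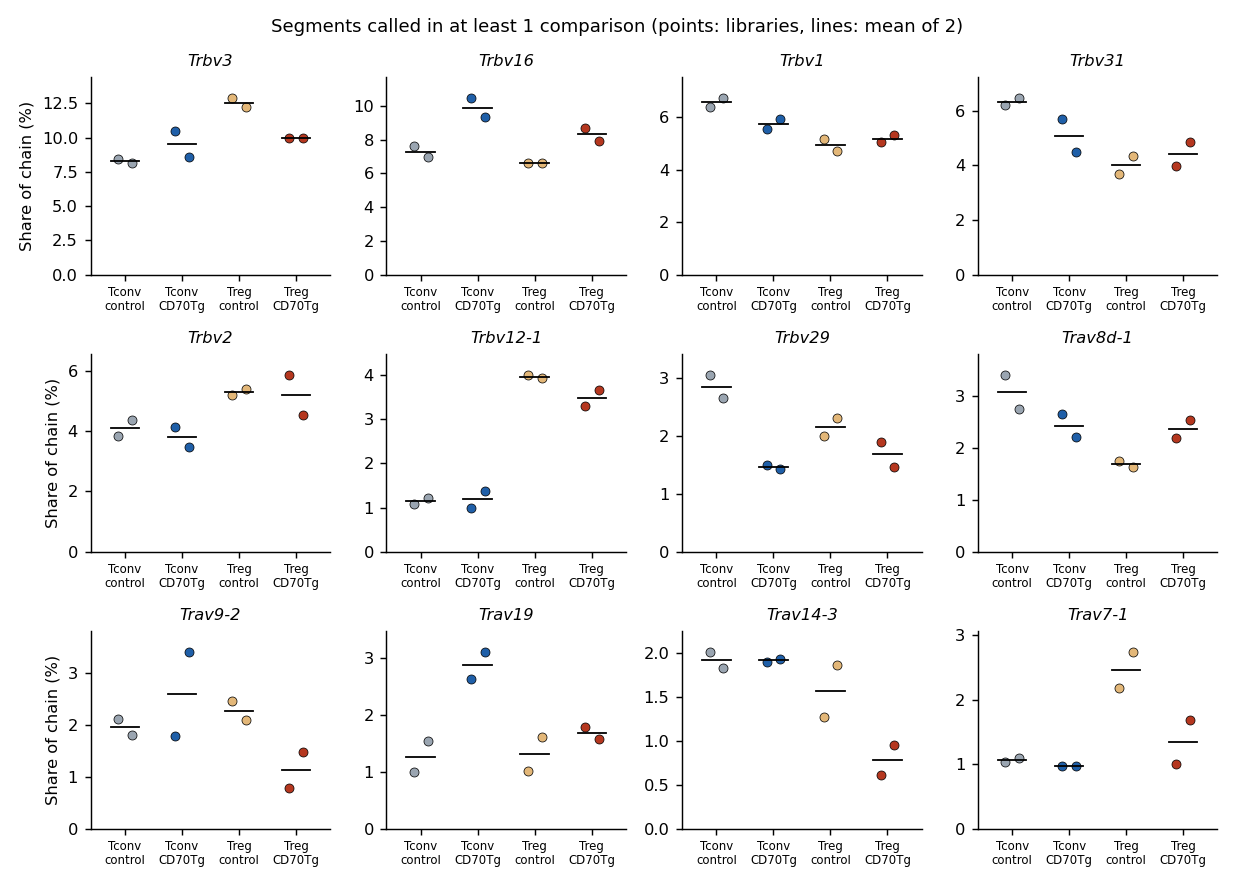
Share of the chain (%) of the 12 segments called in at least 1 comparison. Points are libraries and lines the mean of 2 in each of the 4 groups, and every axis starts at 0. Trbv12-1 has no overlap between the 4 Treg and the 4 Tconv libraries, and Trbv29 and Trbv16 were called between genotypes in Tconvs but not in Tregs.

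Summing segments into families lessens the uncertainty from near copies. Of the 35 families tested, 6 differed between the subsets in control mice, against 45.7% of all rows. Besides Trbv12, Trbv3, Trbv1 and Trbv31, these were Trav14 and Trav7. Trav14 fell from 16.9% ± 2.29 in control Tconvs to 12.1% ± 0.0497 in control Tregs (SD, n = 2, adjusted p = 0.012 by limma), and the adjusted p was 0.16 without Tconv control library 1, with a call in 5 of 8 fits that left out a library. In CD70Tg mice 3 families differed, against 42.5% of all rows. These were Trbv12 (called in 5 of 8 such fits, with an adjusted p of 0.22 without Tconv CD70Tg library 1), Trbv2 (4 of 8, with 0.32 without Treg CD70Tg library 1) and Trav14. Trav14 held 13.2% in Tconvs and 9.99% in Tregs (adjusted p = 0.032, and called in 3 of 8 such fits, with 0.11 without Treg CD70Tg library 2). Trav7 rose from 11.9% ± 1.17 to 15.6% ± 0.0214 in control Tregs (adjusted p = 0.03, and called in 5 of 8 such fits, with 0.22 without Tconv control library 1). The Trbv13 family held 25.5, 23.0, 22.2 and 23.2% on average in control Tconvs, CD70Tg Tconvs, control Tregs and CD70Tg Tregs. Between genotypes, 3 families were called in Tconvs against 8.85% of all rows, namely Trav19, Trbv16 and Trbv29, and 0 in Tregs against 7.47%, where 0 segments were called too.

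Segments of the invariant receptors were measured as well, since natural killer T (NKT) cells use Trav11 and mucosal-associated invariant T (MAIT) cells use Trav1. Trav11 and its copies Trav11d and Trav11n had 23 and 15 reads in control Tconvs, 3 and 10 in CD70Tg Tconvs, 1 and 1 in control Tregs and 0 and 0 in CD70Tg Tregs. By deposited values, their shares of the alpha chain were 0.245 and 0.359%, 0.116 and 0.0904%, 0.0933 and 0.092%, and 0%. Deposited values are rounded up, which raises the shares of segments with few reads. At the depth of the CD70Tg Treg libraries, 0 reads allow shares of up to 0.598 and 0.318%, and these segments were not tested. Trav1 held between 0.374 and 1.05% of the alpha chain and did not reach the minimum either.

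Markers of other cells that moved with the groups are given beside these shares, and their part in them was not tested. The 6 NKT-like and MAIT-like markers summed to 1747 to 6025 in Tconvs and 221 to 358 in Tregs, with Cxcr6 as the largest part of the sum in Tconvs. Of the 5 tested, 4 were lower and Il17rb was higher in Tregs in both genotypes by limma, against 18.4 and 20.1% of all rows lower in control and CD70Tg mice. In CD70Tg against control Tconvs, 3 were lower and Cxcr6 was higher, against 1.99% of all rows lower and 6.82% higher. In Tconvs, Zbtb16, the transcription factor of innate-like T cells, fell from 119 and 151 to 29 and 19 (adjusted p = 0.018). Klrb1c in Tconvs fell from 403 and 423 to 75 and 68 (adjusted p = 0.0028) and Il17rb from 36 and 72 to 3 and 9 (adjusted p = 0.0029), whereas the chemokine receptor gene Cxcr6 rose from 1056 and 1388 to 3095 and 5738. In CD70Tg against control Tregs, Klrb1c was lower and Xcl1 higher, against 3.46% of all rows lower and 3.94% higher. Both CD8 genes were higher in CD70Tg Tconvs, against the 6.82% of all rows, with Cd8a at 17 and 28 in controls and 508 and 608 in CD70Tg mice. Cd8a was also higher in CD70Tg Tregs, with 262 and 223 against 25 and 71 in controls (adjusted p = 0.0012 by limma), and the enrichment before the sort included depletion with an antibody to CD8 beta. The 6 gamma-delta T cell markers summed to 385 to 724 in Tconvs and 232 to 493 in Tregs, with Trdv4 and Sox13 near 0. Between genotypes, the 4 tested had median log2 differences of -0.83 in Tconvs and -0.88 in Tregs, with 1 called lower by limma in each, against 1.99 and 3.46% of all rows. Tcrg-C4, a gamma constant region, was at 83 and 143 in control and 44 and 35 in CD70Tg Tconvs (adjusted p = 0.047). The delta constant region Trdc was at 117 and 189 in control and 42 and 77 in CD70Tg Tregs (adjusted p = 0.024), and at 208 and 247 in control and 297 and 207 in CD70Tg Tconvs. The 4 B cell markers summed to 61 to 132 in Tconvs and 244 to 441 in Tregs, and the 3 myeloid markers to 838 to 1418 and 2220 to 2488. Of the myeloid markers, Csf1r alone was called higher in Tregs of control mice, with 449 and 417 in Tconvs and 1500 and 1205 in Tregs, and all 3 were called higher in Tregs of CD70Tg mice, against 27.5 and 22.6% of all rows higher in these comparisons. In CD70Tg against control mice, limma called 1 myeloid marker higher and 1 lower in Tregs, against 3.94% of all rows higher and 3.46% lower. In Tconvs 1 was called lower, against 1.99%. Itgam was at 146 and 198 in control and 377 and 381 in CD70Tg Tregs, and Csf1r at 930 and 762 in CD70Tg Tregs. In Tconvs, Itgam was at 178 and 166 in control and 93 and 80 in CD70Tg mice. The recombinase genes Rag1 and Rag2 were at 0 to 6. Dntt, which adds bases at V(D)J joints, was at 227 to 294 in Tconvs and 0 to 25 in Tregs.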

How the data were processed

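RNA from sorted Tregs and Tconvs was made into libraries with the Ovation SoLo kit and sequenced in paired-end mode. The authors trimmed adapters with Trimmomatic 0.36, mapped reads to mm10 with STAR 2.5.3, counted reads per gene with HTSeq 0.9.1, and deposited a score per gene, which is the count scaled to 20 M reads and rounded up. Tool versions are from the submitters' processing notes. How HTSeq treated strand and reads with several alignments is not given in the sources used here. Because of this, reads of near-identical segments may be shared, lost or split between them.

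Columns were assigned to groups by their names. What 1 read is worth was found from the steps between low values, and reads were recovered from it. The 4131 rows named for genomic clones were left out. Rows with at least 60 in at least 2 libraries, 12816 in all, were tested with limma 3.58.1 in R 4.3.3 (trend in the prior variance, prior degrees of freedom 12.3) on log2(value + 5), with 4 group coefficients. V segment values were first scaled to the mean chain total of the 8 libraries. Fold changes are on this scale. P-values were adjusted by the Benjamini-Hochberg method over all rows within a comparison, and called under 0.05. Standard errors after a log2 value are limma's. Totals and diversity were compared with two-sided exact permutation tests (scipy 1.17.1). Identity of V exons was computed with Biopython 1.88 on GENCODE M21 transcripts. The limma fit was tested on simulated data without the scaling to chain totals, so that step is not covered. The spread beyond counting error in that simulation was set in advance and not taken from these libraries.

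Genes named are every tested beta segment, called alpha segments, the 10 alpha segments with the largest mean share, Trav11 and Trav1 with their copies, Trbv13-2 and Trbv5, and the members of the marker lists. Trav16n, Trav21-dv12, Trav7-5 and other segments in counts of 5 or fewer, and Trav14-3 and Trav14d-3-dv8 between genotypes, were named after their values were seen. The segments, lists and comparisons were chosen with earlier results of these data known. Alternatives were pseudocounts of 1 and 20, other minimum values, deposited levels, other chain totals, median-of-ratios factors, limma-voom on recovered reads, the 4 libraries of a comparison alone, a log2 limit of 1, each library left out in turn, and families in place of segments, the last chosen after seeing the data.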

Additional observations from a re-analysis of the deposited data

How the results depend on the processing

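No paired analysis was possible because the columns carry library numbers that could not be tied to the replicate numbers of the sample titles. Leaving out each library in turn gave 0 to 3 called segments for CD70Tg against control in Tregs (3 without Treg CD70Tg library 2), 0 to 3 in Tconvs (0 without Tconv control library 1, 1 without Tconv CD70Tg library 2), 3 to 8 for Tregs against Tconvs in control mice (3 without Tconv control library 1), 2 to 8 in CD70Tg mice (2 without Tconv CD70Tg library 2, 8 without Treg CD70Tg library 2), and 0 to 1 for the difference between the responses (1 without Treg CD70Tg library 2). With deposited levels in place of shares, 1 segment was called between genotypes in Tregs, and 42 and 39 between subsets in control and CD70Tg mice. On these levels the higher shares of Trbv3 in control Tregs and of Trbv2 in CD70Tg Tregs had log2 differences of -0.068 and -0.333, since the chain totals are lower in Tregs. With the 4 libraries of a comparison alone, 1 segment was called between genotypes in Tregs and 11 between subsets in control mice. Limma-voom called 6 segments between genotypes in Tconvs (Trbv13-1, Trav21-dv12 and Trav14d-3-dv8 besides the 3 called) and 1 between subsets in CD70Tg mice, Trbv12-1. Without a minimum value 0 were called between genotypes in Tconvs, and with a log2 limit of 1 there were 1 in that comparison and 2 between subsets in control mice. The cause was not tested. Pseudocounts, median-of-ratios factors, a mean of at least 60 and chain totals over tested segments kept all 5 counts within 1.5 times. Families in place of segments gave counts within that range too. These are out of 35 families and not 72 segments, so they are not counts of like units. The mean effective number of alpha segments, 63.08, was 58.03 with segments of 3 reads or more, 60.32 with functional segments and 48.58 as the inverse Simpson index, and 62.69 to 63.46 with a library left out. That of beta segments, 16.84, was 14.39 as the inverse Simpson index and 16.79 to 16.95 with a library left out. Depth limits the alpha chain in Tregs most, where 502 to 1230 V reads were spread over 128 segments.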
